A study of Bubalus bubalis with 12 samples.

Results

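Tight junctions seal the space between neighbouring epithelial cells and set how easily ions and small molecules pass between them. Their strands are built from claudins and occludin, which span the membrane, junctional adhesion molecules sit beside the strands, and plaque proteins such as the zonula occludens (ZO) proteins and cingulin tie them to actin. The rumen is lined by a stratified squamous epithelium that takes up short-chain fatty acids while holding back the microbes of the lumen, and tight junctions are part of that barrier. Expression of 9 genes of this structure, of 34037 genes in the table, was described in the ruminal wall of 12 buffaloes. The 9 genes were chosen by name, as 4 claudins (CLDN1, CLDN4, CLDN7 and CLDN23), occludin (OCLN), junctional adhesion molecule A (F11R), ZO-1 (TJP1), ZO-3 (TJP3) and cingulin (CGN).

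The study asked how green feed changes the transcriptome of the rumen. The control group, 6 Italian Mediterranean dairy buffaloes (Bubalus bubalis), received a total mixed ration (TMR), and the treated group, 6 buffaloes, received TMR in which green ryegrass made up 30% of the diet. The diets were balanced for nitrogen and energy per the study's methods, and the forage share of the diet differed between them as well. All animals were adult and from 1 dairy farm, and 1 frozen piece of ruminal wall per animal gave 1 stranded total RNA library. In such bulk tissue fewer cells of a type and less RNA per cell cannot be told apart.

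The counted fragments per library, worked out from the steps of the deposited values, ran from 10531541 to 12948372, with medians of 12414349 in the control and 12031597.5 in the treated group. Levels are given as FPKM, in which each gene's fragments are divided by its length and by the library total, so that levels of different genes can be set side by side. The tissue label was checked against marker genes. The 12 measured markers of squamous epithelium were all expressed, with the basal keratin KRT5 at a mean of 1436 FPKM in the control and 1550 FPKM in the treated group. The 10 smooth muscle markers were lower, from SMTN at 13.4 and 13.5 FPKM and TAGLN at 9.65 and 5.75 FPKM to DES at 3.22 and 1.66 FPKM, MYH11 at 2.57 and 1.45 FPKM and SYNPO2 at 0.509 and 0.255 FPKM in the control and treated group. Of 7 markers of columnar or glandular epithelium, KRT18, VIL1, CDX2 and MUC2 were listed at 0 in every animal, while EPCAM was at 52.2 and 64.4 FPKM, KRT8 at 18.6 and 16.4 FPKM and KRT20 at 6 and 6.83 FPKM. Libraries of control replicate 6 and treated replicate 6 stood apart from the other 10. Their mean correlation with the other libraries was 0.869 and 0.864 against 0.887 to 0.902, KRT5 was at 451.2 and 497.8 FPKM against 1179 to 2372 FPKM, and beta-actin (ACTB) was at 370.2 and 289 FPKM against 596.4 to 805.6 FPKM. The mean of the 12 squamous markers, each centred on the log2 scale, was -0.472 and -0.869 there against -0.167 to 0.483. The markers were not all low there, as DSG3 was at 970.9 and 843.5 FPKM against 549.5 to 829.8 FPKM. Results that rest on these libraries are given with and without them.

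The 9 genes were all expressed in every animal, and their mean levels spanned from 4.76 FPKM for CLDN23 to 254.5 FPKM for CLDN4. The order was CLDN4, CLDN1, F11R, OCLN, CGN, TJP1, TJP3, CLDN7 and CLDN23. CLDN4 was the highest and CLDN1 the next in each of the 12 animals. Of the 8 neighbouring pairs in this order, 7 differed (two-sided exact sign-flip permutation test of the within-animal log2 ratio, adjusted over the 8 pairs, p between 0.000977 and 0.00335, n = 12). The pair that did not was F11R and OCLN, whose ratio was 1.02 and ranged from 0.854 to 1.28, with F11R higher in 6 of 12 animals (p = 0.596, exact sign-flip permutation test). The count was also 7 of 8 without both replicate 6 libraries. The pairs and their direction were set by the mean levels in these same animals. The p-values are thus no separate support for the order.

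**Figure D1:**
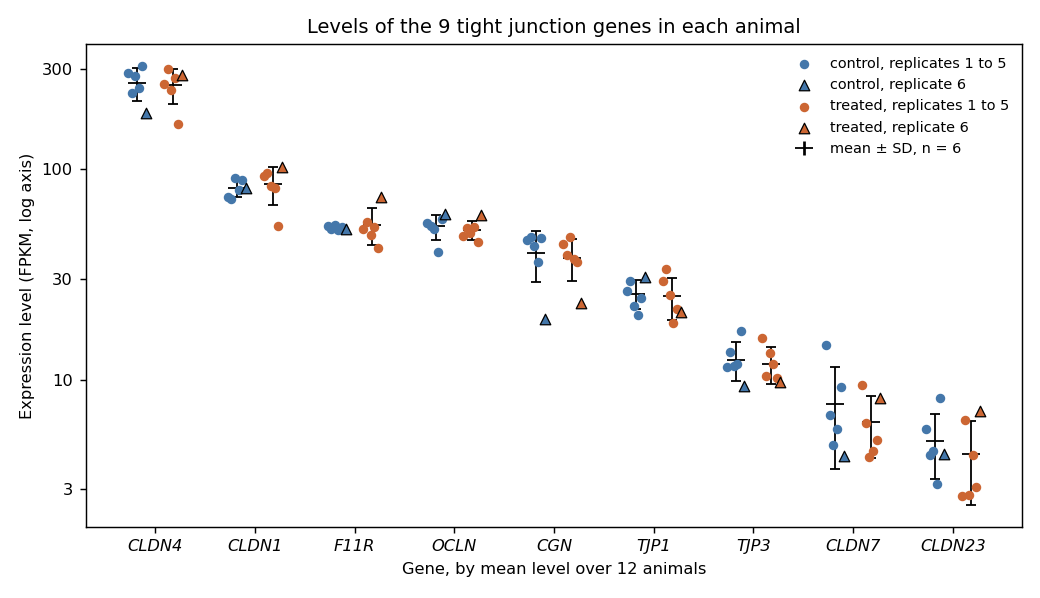
Level of each of the 9 tight junction genes (x axis) in FPKM (y axis, log scale), with 1 point per animal, control in blue and treated in orange, replicate 6 of each group as a triangle, and the mean ± SD of 6 animals in black. The groups overlap for every gene, CLDN4 lies between 163.7 and 311 FPKM, and the lowest CGN values are those of both replicates 6.

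CLDN4, a claudin of tight epithelia that is known to lower the passage of cations, was at 184.9, 262.6 and 311 FPKM (lowest, median and highest) in the control group and at 163.7, 263.7 and 301.4 FPKM in the treated group. The medians were nearly equal, and the lowest treated animal, replicate 5, lay under all controls. CLDN4 stood above 97.9% of the 12633 genes tested. CLDN1, which seals the epidermal barrier in mammals, was at 72.7, 80.7 and 90.7 FPKM in the control group and at 53.9, 88.6 and 102.8 FPKM in the treated group. In the treated group 3 animals lay above and 1 below all controls, so the groups overlapped. The SD was 7.46 FPKM in the control and 17.3 FPKM in the treated group, and 8.83 FPKM in the treated group without replicate 5, the animal at 53.9 FPKM. The CLDN4 level was 3.04 times that of CLDN1, with a range over animals from 2.26 to 3.89.

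CLDN7, which is found on the basolateral side of many epithelia as well as in the junction, was at 4.35, 6.31 and 14.7 FPKM in the control and at 4.3, 5.69 and 9.42 FPKM in the treated group. Its highest value, 14.7 FPKM in control replicate 1, stood above the next highest control at 9.19 FPKM. CLDN23 was at 3.18, 4.48 and 8.2 FPKM in the control and at 2.8, 3.72 and 7.09 FPKM in the treated group, and 3 treated animals lay under all controls. CLDN7 and CLDN23 rested on 39 to 157 and on 68 to 204 fragments per animal, so that counting alone gives a coefficient of variation (CV) of 11.7% and 9.22%, against an observed CV over all animals of 43.5% and 37.1%. CLDN7 and CLDN23 were thus the most variable of the 9 genes, and 86.9% and 80.2% of genes tested had a lower CV.

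The other claudins gave the background to these 4. Of 22 claudin genes in the table, CLDN4 held 69.9% ± 2.86 (SD, n = 6) of the summed claudin FPKM in the control and 69.5% ± 1.55 (SD, n = 6) in the treated group. CLDN1 held 22.6% ± 3.37 and 23.5% ± 1.41 (SD, n = 6 each). The other claudins shared what was left, and CLDN7 with 2.04% ± 0.852 and 1.76% ± 0.539 and CLDN23 with 1.38% ± 0.341 and 1.2% ± 0.369 were among the highest of them. The CLDN4 share was lowest in control replicate 6, at 64.5%, where the CLDN1 share was highest, at 28.6%. A further 4 claudins had at least 1 FPKM in at least 6 animals. CLDN12 was at 6.04 ± 1.05 FPKM in the control and 5.19 ± 0.816 FPKM in the treated group (SD, n = 6 each), above CLDN23 in both. CLDN3 was at 3.56 ± 2.11 and 3.21 ± 1.26 FPKM. CLDN19 was at 3.01 ± 1.8 and 3.69 ± 2.41 FPKM, from 0.2045 FPKM in control replicate 6 to 7.614 FPKM in treated replicate 6. CLDN5, a claudin of blood vessel endothelium, was at 1.83 ± 0.943 and 2.36 ± 2.4 FPKM. These 4 had no nominal limma p below 0.05 for the diet. The other 14 claudins did not pass the filter on low values. Of these, CLDN2, CLDN6, CLDN8, CLDN9, CLDN18, CLDN20 and CLDN34 were listed at 0 in all 12 animals, although a gene can be listed at 0 for other reasons than lack of expression (KRT18 was listed at 0 in every animal while its partner keratin KRT8 was at 18.6 and 16.4 FPKM in the control and treated group).

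**Figure D2:**
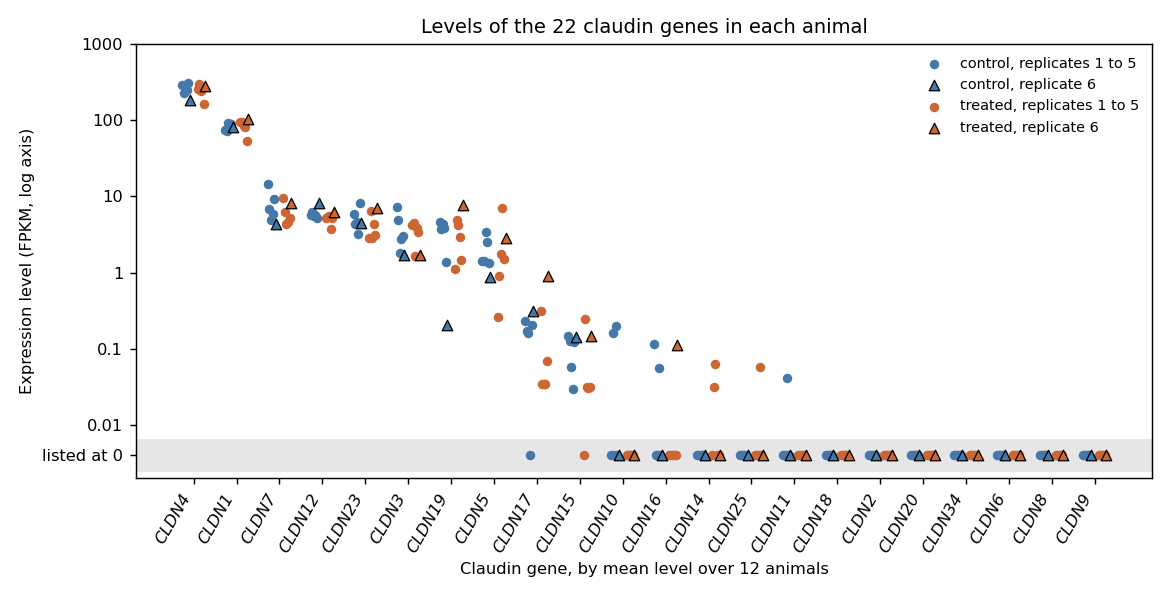
Level of the 22 claudin genes (x axis, ordered by mean level) in FPKM (y axis, log scale) with 1 point per animal, control in blue, treated in orange and replicate 6 as a triangle, and values listed at 0 drawn in the grey band. CLDN4 and CLDN1 stand above every other claudin in all animals, 6 more claudins lie mostly between 1 and 10 FPKM, and 7 are at 0 throughout.

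Some of these genes lie next to a relative in the genome, by the RefSeq annotation of the NDDB_SH_1 assembly, which was used for the order of genes only. CLDN3 is the neighbour of CLDN4, and the CLDN4 level was 82.5 times that of CLDN3, with a range from 40.4 in control replicate 1 to 168.5 in treated replicate 6. CLDN16, a claudin of the kidney, is the neighbour of CLDN1. It had at most 2 fragments in any animal, while CLDN1 had 2129 to 4363. MARVELD2, the gene of tricellulin, which seals the points where 3 cells meet, is the neighbour of OCLN, whose level was 7.8 times higher (6.64 to 9.97 over 12 animals). Within each of these neighbouring pairs, the gene of the 9 was the higher one in all animals.

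OCLN encodes occludin, the MARVEL protein of the strands. It was at 40.3, 54.8 and 61.1 FPKM in the control and at 45.2, 51.4 and 60.6 FPKM in the treated group, and every treated value lay within the range of the controls. Its CV of 11.6% over 12 animals was the lowest of the 9 genes, and 7.53% of the genes tested had a lower one. OCLN held 82.6% ± 0.734 (SD, n = 6) of the summed FPKM of the 3 MARVEL genes in the control and 83.1% ± 1.78 (SD, n = 6) in the treated group. MARVELD2 held 11.2% ± 0.909 and 10.1% ± 1.02, and MARVELD3 held the rest.

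F11R, which encodes an adhesion molecule of the immunoglobulin family beside the strands, was at 51.5, 52.7 and 54.7 FPKM in the control and at 42.1, 52.6 and 74.2 FPKM in the treated group. The control animals were nearly alike, while 2 treated animals lay above and 2 below all of them. The CV of the controls was 2.19%, against 2.37% that counting of fragments alone would give, and the treated CV was 19.9%. Of the 12633 genes tested, 5 had a lower control CV than F11R, and 5 had a larger ratio of treated to control CV. This contrast was picked out after the values were seen and was not tested. Without treated replicate 6, which held the highest F11R value, the treated CV was 10.6%. F11R took 54.9% ± 3.76 and 54.5% ± 5.54 (SD, n = 6 each) of the summed FPKM of the 5 genes of the junctional adhesion family, and CXADR, the coxsackie and adenovirus receptor, took 42.7% ± 3.71 and 43.2% ± 6.04 in the control and treated group.

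CGN encodes cingulin, a plaque protein that links the junction to actomyosin and microtubules. It was at 19.5, 44.7 and 47.5 FPKM in the control and at 23.2, 38.3 and 47.8 FPKM in the treated group. The lowest value of each group was that of replicate 6, and the other 10 animals lay between 36.1 and 47.8 FPKM. Without both libraries the CV of CGN fell from 23.9% to 11.2%. In control replicate 6 CGN was below TJP1, at 0.637 times its level, while it was 1.11 to 2.03 times as high as TJP1 in the 11 others. The related gene CGNL1 was at 2.38 ± 0.899 FPKM in the control and 2.54 ± 0.626 FPKM in the treated group (SD, n = 6 each), and CGN took 93.8% ± 3.35 and 93.6% ± 1.63 of the sum of both.

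TJP1 and TJP3 encode ZO-1 and ZO-3, scaffold proteins that bind claudins and occludin on the inner side of the membrane. TJP1 was at 20.4, 25.5 and 30.6 FPKM in the control and at 18.5, 23.5 and 33.6 FPKM in the treated group. TJP3 was at 9.28, 11.7 and 17 FPKM in the control and at 9.69, 11.2 and 15.8 FPKM in the treated group. Treated values of TJP3 all lay within the control range, and for TJP1 1 treated animal lay above and 1 below it.

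None of the 9 genes passed the test of the diets. Over all genes, 157 of 12633 had a nominal limma p below 0.05, which is 1.24% of the genes tested. Of these, 100 were higher (0.792%) and 57 were lower (0.451%) under the green feed diet. A threshold of 0.05 is expected to mark a larger share than 1.24% where no gene differs. At so low a share, 0 called among few genes has little weight. Why the share was low was not tested. By limma with Benjamini-Hochberg adjustment 0 genes had an adjusted p below 0.05, the smallest adjusted p being 0.9997, and limma-voom on the fragments gave 145 nominal and 0 adjusted. Of the 9 genes, 0 had a nominal p below 0.05 and 0 had an exact permutation p below 0.05, against 219 of all genes (1.73%). Groups that did not overlap were found for 0 of the 9 and for 7 of all genes (0.0554%). The median log2 fold change, treated minus control, was -0.05 over the 9 genes and 0.01 over all genes tested.

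The estimates came with intervals that bound the size of a difference. The narrowest were those of OCLN and F11R. For OCLN the limma estimate, treated minus control on the log2 scale, was -0.05, its standard error (SE) 0.11 and its 95% interval -0.29 to 0.2, that is from -18.2% to 14.9% (exact permutation p = 0.675). F11R had 0.02 with an SE of 0.12, and its interval ran from -15.2% to 20.9% (exact permutation p = 0.857). CLDN1 had 0.04 with an SE of 0.14 and an interval from -16.9% to 27.6% (exact permutation p = 0.816). CLDN4 had -0.03 with an SE of 0.16 and an interval from -23.3% to 24.9% (exact permutation p = 0.844).

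The plaque genes gave like values. TJP1 had an estimate of -0.06 with an interval from -24% to 21.2% (exact permutation p = 0.714), and TJP3 had -0.06 with an interval from -24.6% to 21.9% (exact permutation p = 0.706). CGN had -0.04 with a wider interval from -30.8% to 35.8% (exact permutation p = 0.825). The widest intervals were those of the low claudins. CLDN7 had -0.2 with an SE of 0.29 and an interval from -43.8% to 34.2% (exact permutation p = 0.545). CLDN23 had -0.24 with an SE of 0.28 and an interval from -44.5% to 28.5% (exact permutation p = 0.435), the largest estimate of the 9, and a larger absolute log2 fold change than 83.5% of the genes tested. The permutation tests were two-sided and covered all 924 assignments of 6 against 6 animals, for which the smallest p is 0.002165, and the adjusted limma p of each of the 9 genes was 0.9997.

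Without both replicate 6 libraries, 0 of the 9 genes passed as well. The interval of CGN narrowed to log2 values from -0.33 to 0.13 around an estimate of -0.1. CLDN7 and CLDN23 had estimates of -0.43 each, with intervals from -1.08 to 0.23 and from -1.05 to 0.19, and CLDN4 had -0.16 with an interval from -0.5 to 0.18. The estimates of CLDN1 and F11R turned to -0.02 and -0.08, and that of TJP1 to 0.04.

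**Figure D3:**
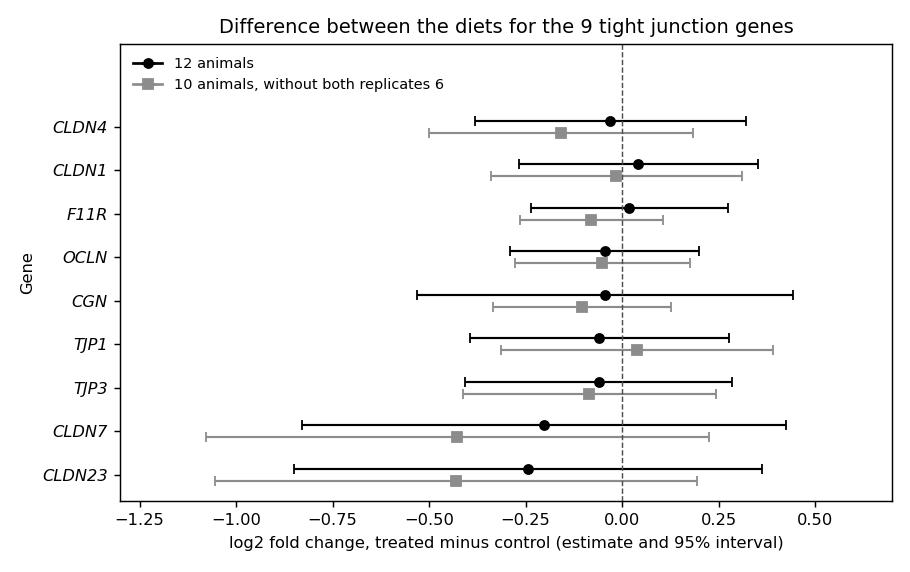
Log2 fold change of the 9 tight junction genes (y axis), treated minus control (x axis), as the limma estimate with its 95% interval, for all 12 animals in black and for 10 animals without both replicates 6 in grey. Every interval holds 0, and those of CLDN7 and CLDN23 are the widest.

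The further genes of the junction were described in the same fit. Of 51 listed symbols, 50 were in the table and 30 passed the filter on low values. The symbol without a row, PALS1, is another name of MPP5, so no listed gene was missing. None had a nominal limma p below 0.05 (0 of 30, against 1.24% of all genes), 19 estimates were above and 11 below 0, and their median log2 fold change was 0.03. Among the highest of them were YBX3, a Y-box protein that binds ZO-1, at 72.7 ± 13.2 FPKM in the control and 77.6 ± 21.7 FPKM in the treated group, CXADR at 41.5 ± 6.44 and 42.6 ± 6.22 FPKM, the angiomotin relative AMOTL1 at 31.7 ± 7.82 and 34.8 ± 11.5 FPKM, the apical polarity protein CRB3 at 28 ± 4.75 and 25.9 ± 2.13 FPKM, and the atypical protein kinase C PRKCI at 25.2 ± 1.84 and 25.7 ± 3.64 FPKM (SD, n = 6 each). The smallest p belonged to MPP5 (PALS1), the partner of CRB3 and PATJ in the polarity complex, which was named after its values were seen. MPP5 was at 16.1, 16.6 and 20.2 FPKM in the control and at 13.1, 14.8 and 17 FPKM in the treated group. Its estimate was -0.21 on the log2 scale, with an SE of 0.1 (limma, adjusted p = 0.9997). Its nominal limma p was 0.0672 and its two-sided exact permutation p 0.0325, and it was the 1 gene of the 30 with a permutation p below 0.05, against 1.73% of all genes. Without control replicate 6, the library with the 20.2 FPKM, the MPP5 estimate was -0.16. Of 9 adherens junction genes, which passed the filter in full, 0 had a nominal limma p below 0.05, and their median log2 fold change was 0.02. The same held for 12 tested regulators of epithelial junctions, with 0 called and a median of -0.03.

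Markers of other cell types were set beside these values. The 7 tested smooth muscle markers all had estimates below 0, with a median log2 fold change of -0.78. Of them 1, DES, had a nominal limma p below 0.05, against 1.24% of all genes tested. Its adjusted limma p was 0.9997 and its exact permutation p 0.052. The summed level of the 10 markers ran from 28.9 to 51.2 FPKM in the control and from 15.5 to 40.7 FPKM in the treated group. The 6 fibroblast markers were all below 0 as well (median -0.74, 0 called), with sums from 38.8 to 248.3 FPKM and from 15.9 to 161.7 FPKM. For the 12 squamous epithelial markers 6 estimates were above and 6 below 0, with a median of 0.03. Their sums ran from 3620 to 5861 FPKM and from 3609 to 6732 FPKM. Replicate 6 held the lowest squamous sum of each group. Treated replicate 6 also held the lowest smooth muscle and the highest fibroblast sum of its group. Of 7 endothelial, 4 leukocyte, 3 columnar or glandular and 4 ruminal absorptive markers tested, 0 were called. The part of these cell types in the values of the 9 genes was not tested beyond the scores below. With the smooth muscle score as a covariate, 0 of the 9 genes passed, and the estimates of CLDN1, F11R and CGN changed sign, to -0.16, -0.1 and 0.01. Those of CLDN4, TJP1, TJP3, CLDN7 and CLDN23 moved farther below 0, to -0.17, -0.25, -0.09, -0.39 and -0.43. The score also held 3 markers that did not pass the filter on low values, ACTG2, CNN1 and LMOD1. CNN1 was at 0 in treated replicates 2 and 6 and ACTG2 in treated replicate 2. The score was lowest in these animals, at -1.85 and -1.2, so that it rested in part on values at 0.

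Between animals, more pairs of the 9 genes were positively than negatively correlated. Correlations of other gene pairs were not set beside them. In treated replicate 5 and in control replicate 4 all 9 genes were below their mean over the animals, by 0.35 and 0.17 on average on the log2 scale, and in control replicate 5 the average lay 0.31 above it. Of the 36 pairs of genes, 27 had a positive and 9 a negative Pearson r, and the median r was 0.27. Within the diets the median r was 0.32 (control) and 0.29 (treated). The number of pairs with an adjusted p below 0.05 was 0, and 6 had an unadjusted p below 0.05 (100000 permutations, adjusted over 36 pairs). Without both replicates 6 all 36 r were positive, from 0.09 upwards with a median of 0.35, 7 had an unadjusted and 1 an adjusted permutation p below 0.05, and the 9 negative r thus depended on these libraries.

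**Figure D4:**
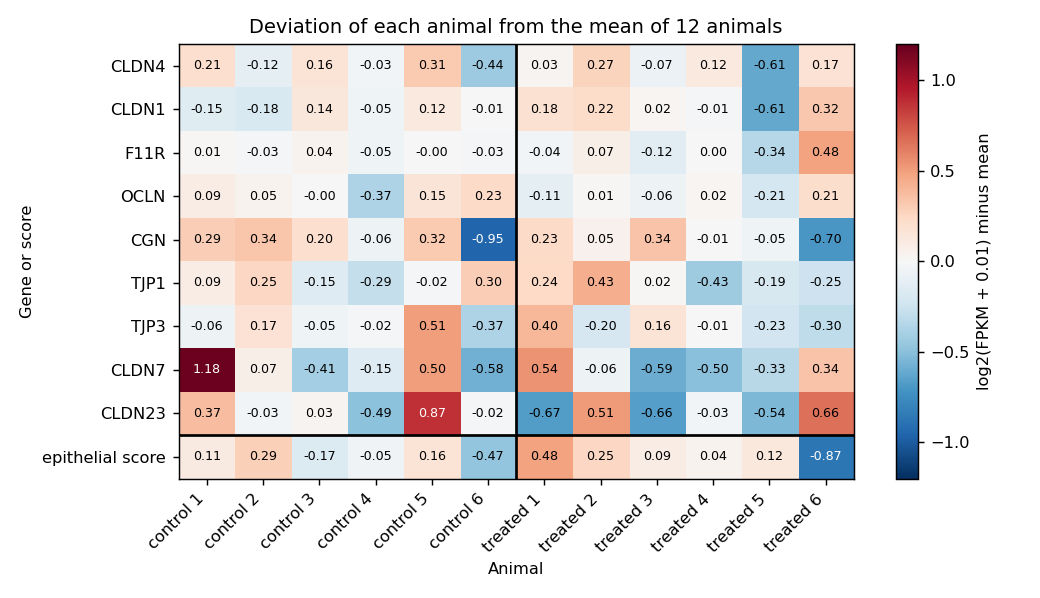
Deviation of log2(FPKM + 0.01) from the mean over 12 animals for the 9 tight junction genes and for the squamous epithelial score (rows) in each animal (columns), from blue (below the mean) to red (above it). CLDN4 and CLDN1 are lowest in treated replicate 5, and CGN and the epithelial score are lowest in both replicates 6.

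The highest r were those of CLDN1 with F11R, CGN with TJP3 and CLDN4 with CLDN1. CLDN1 and F11R had r = 0.77 and rho = 0.56 (permutation p = 0.0155 and 0.0632, adjusted p = 0.112 and 0.284), and r was 0.33 without treated replicates 5 and 6, the animals farthest from the median of CLDN1, but 0.82 without both replicates 6 (permutation p = 0.0206). CGN and TJP3 had r = 0.73 and rho = 0.76 (permutation p = 0.00859 and 0.00626, adjusted p = 0.112 and 0.077), and r was 0.64 without both replicates 6. CLDN4 and CLDN1 had r = 0.73 and rho = 0.57 (permutation p = 0.01 and 0.0558, adjusted p = 0.112 and 0.284), and r was 0.49 without treated replicate 5 and control replicate 6, the animals farthest from the median of CLDN4, but 0.85 without both replicates 6 (permutation p = 0.00954). Within the groups this r was 0.31 in the control and 0.94 in the treated animals. OCLN and CLDN23 had r = 0.72 and rho = 0.72 (permutation p = 0.00733 and 0.011, adjusted p = 0.112 and 0.079), with 0.7 after leaving out control replicate 4 and treated replicate 5. The pair of CLDN4 and F11R moved with the choice of animals. Its r was 0.6 over 12 animals (permutation p = 0.053, adjusted p = 0.273) and 0.93 over the 10 animals without both replicates 6 (permutation p = 0.0011, adjusted p = 0.0396), a subset chosen after seeing the data.

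The relation to the squamous markers was examined with a score, the mean over 12 of them of their centred log2 values. A like score was made of 10 smooth muscle markers. In control and treated replicate 6 the squamous markers went apart, so the score is no plain measure of the amount of epithelium. PKP1 was the lowest of each group there (117.2 and 63.49 FPKM) and DSG3 the highest (970.9 and 843.5 FPKM). Of the smooth muscle markers, SMTN was the lowest of each group there (4.56 and 3.472 FPKM). Of the 18 relations of the 9 genes with both scores, 0 had an adjusted p below 0.05 and 3 an unadjusted p below 0.05. CGN had r = 0.81 and rho = 0.62 with the epithelial score (permutation p = 0.00643 and 0.0347, adjusted p = 0.116 and 0.351). Without both replicates 6, the animals farthest from the median score, r was 0.29, so that this relation rested on them. Within the groups, each of which still held its replicate 6, r was 0.88 in the control and 0.9 in the treated group. TJP3 had r = 0.65 (permutation p = 0.0212, adjusted p = 0.191), which became 0.44 without these 2 animals. F11R had r = -0.64 (permutation p = 0.0499, adjusted p = 0.3), which became -0.02, and TJP1 had 0.35, which became 0.71 (permutation p = 0.0218, not adjusted).

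**Figure D5:**
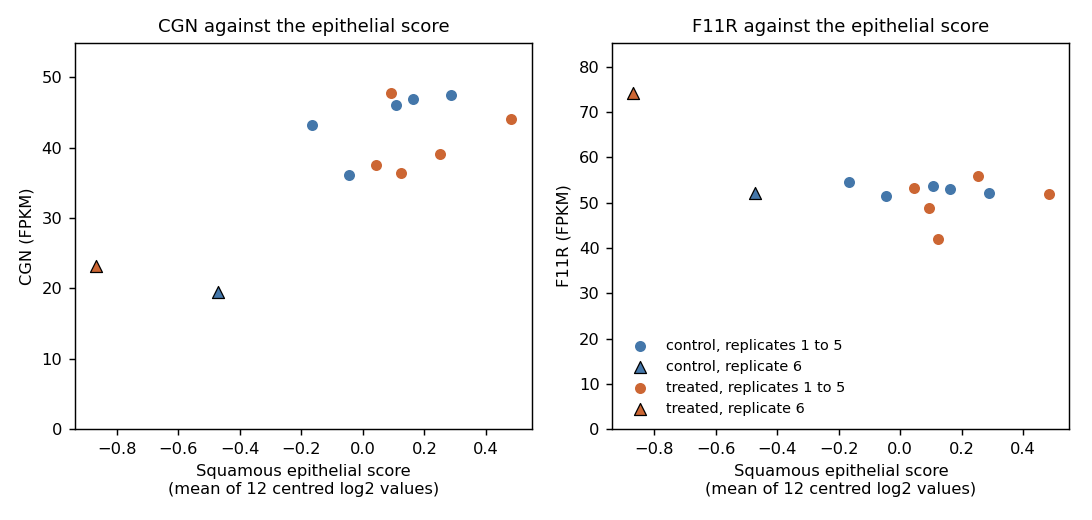
CGN (left) and F11R (right) in FPKM (y axes, from 0) against the squamous epithelial score (x axes, mean of 12 centred log2 values), with 1 point per animal, control in blue, treated in orange and replicate 6 as a triangle. Both replicates 6 lie at the low end of the score, apart from the other 10 animals, with the lowest CGN and, in treated replicate 6, the highest F11R level.

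The genes whose pattern over the 12 animals was most like that of each of the 9 were listed as a description, since they were picked as the highest r of 12633 genes. For CGN they were C5H11orf68 (r = 0.98), BCKDK, the kinase of the branched-chain ketoacid dehydrogenase (0.97), and CHMP6 (0.97), with 0.85, 0.9 and 0.78 when both replicates 6 were left out. For TJP1 they included NCOA2 and RTN3 (r = 0.97 and 0.95), which stayed at 0.97 and 0.94 without these libraries. OCLN was most like SCML2, RFC3 and ADGRF2 (r = 0.94, 0.89 and 0.87). F11R was most like MYZAP, TEC and TIPARP (r = 0.95, 0.9 and 0.89), and these r were 0.28, -0.15 and -0.14 within the controls, where F11R hardly varied. CLDN1 was most like LOC112585712, MSN, which encodes the membrane and actin linker moesin, and MXD1 (r = 0.91, 0.88 and 0.86). TJP3 was most like the syndecan gene SDC1, the hexokinase gene HK1 and MAPK3 (r = 0.88, 0.88 and 0.86). For CLDN4 the highest were RMC1, LOC102406769 and CDKN2AIPNL (r = 0.83, 0.83 and 0.82), for CLDN7 MORN2, LOC102412702 and ZSCAN29 (0.84, 0.83 and 0.82) and for CLDN23 MUC15, FAF2 and CHRNB1 (0.81, 0.78 and 0.77). The mean of the 9 genes was most like TSPAN1, RNF223 and LOC102412702 (r = 0.76 each).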

How the data were processed

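Ruminal wall of 6 control and 6 treated buffaloes was sequenced as total RNA, 1 library per animal, and groups and replicate numbers follow the description of each sample. The library names in the sample titles number the animals in another way, so that the replicate block rests on the former. Per the submitters' processing notes the authors used FastQC 0.11.5, Trimmomatic 0.39, STAR 2.5.2b and featureCounts 2.0.0, and the genome was UOA_WB_1 per the study's methods. The authors deposited FPKM values, and the tool that computed them is not given in the sources used here. The values scale with the counted total of each library, so that a few abundant genes can shift all others. Of 16 value columns, 4 matched no sample and were not used.

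The FPKM of a gene are whole multiples of 1 fragment, from which the fragments behind all 22972 genes above 0 were worked out. A gene whose fragments share a divisor over all animals comes out too low. The gene lengths that follow from the fragments were whole numbers for 97.8% of these genes. The fragments set the filter and entered limma-voom, while the main fit used the FPKM. Genes with at least 42 TMM-scaled fragments in at least 1 animal (12633, all 9 tight junction genes included) were tested with limma 3.58.1 in R 4.3.3 on log2(FPKM + 0.01) with a variance trend and Benjamini-Hochberg adjustment over all of them. Fold changes are on that scale. Called means a nominal p below 0.05, the threshold of the study. The limma fit was tested on simulated data. Exact permutation tests and correlations were run in Python 3.11.15 with numpy 2.4.6, scipy 1.17.1 and pandas 2.3.3. The 9 genes, the further gene lists and the tests were chosen with earlier results of these data known. Genes named are the 9, of the further junction genes those called, the 6 highest and claudins of at least 1 FPKM in at least 6 animals, and the 3 genes most like each of the 9. Some genes that this rule names are not reported here. Of 137 listed symbols, 3 had no row in the table. Alternatives were other pseudocounts, filters and scalings, limma-voom, the replicate block, both scores as covariates and each animal left out. Leaving out both replicates 6 together was chosen after seeing the data.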

Additional observations from a re-analysis of the deposited data

Results flagged for a closer look

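Each group of 6 animals was checked for a value far from the other 5, for the 9 tight junction genes and the 30 further junction genes tested, which made 78 groups. Chance alone marks about 1 in 20 groups, and 3 of 78 were marked, each of them in control replicate 6. MPP5 was at 20.15 FPKM in control replicate 6, against 16.14 to 16.66 FPKM in the other 5 controls. CLDN12 was at 8.057 FPKM in that library, against 5.138 to 6.205 FPKM. PRKCZ, an atypical protein kinase C, was at 4.216 FPKM there, against 13.53 to 16.09 FPKM. Of the 9 genes, 0 were marked. The part of the features that set this library apart in these values was not tested.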

How the results depend on the processing

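Under each of the 10 other settings, with each animal left out and without both replicates 6, limma called 0 of the 9 tight junction genes at a nominal p below 0.05 and gave 0 of all genes an adjusted p below 0.05. The nominal count over all genes moved from 157 to 562 with no filter, 322 with the replicate block, 284 with the epithelial score as a covariate and 314 without both replicates 6, and ranged from 142 to 326 with single animals left out, the highest without treated replicate 6. Of the further junction genes 1, MPP5, was called with the smooth muscle score as a covariate and without treated replicate 1 (limma, adjusted p = 0.9996 and 0.9998), a range of 0 to 1 with single animals left out. In the other settings the nominal limma p of MPP5 was up to 0.145, reached without treated replicate 4. The smooth muscle score rested in part on markers at 0 in treated replicates 2 and 6. Of the 36 pairs, 1 had an adjusted p below 0.05 without both replicates 6. Of the 8 neighbouring pairs in the order of levels, 0 differed within the control group alone, where 4 pairs were at 0.03125, the smallest exact p of 6 animals (adjusted p = 0.0625), and 6 in the treated group, where 6 pairs were at it (adjusted p = 0.0417). The order within each group was again set by the levels that were tested.

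Signs of estimates near 0 were not stable. With single animals left out the log2 fold change ranged from -0.12 to 0.09 for CLDN4, -0.02 to 0.17 for CLDN1, -0.08 to 0.09 for F11R, -0.24 to 0.09 for CGN, -0.15 to 0.02 for TJP1, -0.15 to 0.03 for TJP3 and -0.34 to 0.01 for CLDN7, while OCLN and CLDN23 stayed below 0. In detail, CLDN4 was at 0.007, 0.028 and 0.088 without control replicates 1 and 5 and treated replicate 5, CGN at 0.0093, 0.018, 0.015 and 0.091 without control replicates 1, 2 and 5 and treated replicate 6, CLDN1 and F11R at -0.018 and -0.076 without treated replicate 6, TJP1 at 0.0203 without treated replicate 4, TJP3 at 0.034 without control replicate 5 and CLDN7 at 0.012 without control replicate 1. Without both replicates 6, CLDN1, F11R and TJP1 were at -0.015, -0.0795 and 0.038, and with the smooth muscle score CLDN1, F11R and CGN were at -0.164, -0.1001 and 0.014. The r of F11R with the epithelial score was 0.016 within the controls. The causes were not tested.

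Same-numbered animals had a mean correlation of deviations of 0.213 (-0.013 to 0.415, over 0.1 for 4 of 6 numbers), and other pairs had -0.039. Deviations were taken from the mean of each group, which ties the mean of other pairs to that of same-numbered ones. The -0.039 is thus no separate comparison. The highest value, 0.415, was that of both replicates 6. Of 6 controls, 4 correlated best with their own number. The main fit did not take the numbers as pairs, although same-numbered animals were positively correlated on average. With the replicate block the nominal count over all genes was 322 against 157 in the main fit. The block changed no call among the 9 genes and the further tight junction genes. Why same-numbered animals were positively correlated on average was not tested. For CLDN7 and CLDN23 the counting CV was 11.7% and 9.22%, against an observed CV of 43.5% and 37.1%. The part of depth in their wide intervals was not tested.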
